A study of Arabidopsis thaliana with 9 samples.

Results

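A set of 80 probe sets whose signal was at least 4-fold lower in inflorescence tips of the epfl4 epfl6 double mutant than in the wild type are described here. They were chosen from the values themselves, as non-control probe sets with a log2 mean in epfl4 epfl6 at least 2 below that of the wild type and with all 3 epfl4 epfl6 arrays below all 3 wild-type arrays. Of 22746 probe sets, 85 met both criteria, and 5 of these, for SHT, ATA27, QQS, SBT5.4 and AT1G20150, were left out by name, which left 80. UND, also named for exclusion, did not meet the criteria, with a log2 change of −1.30. The platform annotation assigned 38 of the 80 to 1 gene, and these carry their names below. Another 2 were assigned to several genes and 40 had no entry, and these are given by probe set or in ranges.

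Arabidopsis thaliana plants of 3 genotypes, all in the Col-0 background, were grown on soil under continuous light without treatment and sampled at 33 days after germination. The groups were the wild type (WT), er-2, a mutant allele of the receptor kinase gene ERECTA that is allelic to er-106, and the double mutant epfl4 epfl6, which lacks function in both of a pair of genes for secreted peptides. Each group had 3 biological replicates, 1 array each, so 9 arrays in all. The sources used here do not say how many plants made up a sample or how buds were staged. Each array gave every probe set a single value, a log2 expression level.

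ERECTA family receptors at the cell surface bind secreted cysteine-rich peptides of the EPF/EPFL family, and in the inflorescence stem EPFL4 and EPFL6 come from the endodermis and act on the receptor in the phloem. Loss of the receptor or of these ligands gives shorter stems and pedicels and compact clusters of flower buds. Inflorescence tips also hold young anthers. Their inner layer, the tapetum, feeds the developing microspores and makes wall and coat material for pollen during a short window of bud development.

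The arrays of one genotype correlated at r = 0.9945 to 0.9973 over all probe sets, against 0.9816 to 0.9907 between genotypes. The 3′ minus 5′ log2 signal difference of the actin, GAPDH and ubiquitin control transcripts had means of 2.45 ± 0.138 (WT), 2.13 ± 0.081 (er-2) and 1.67 ± 0.0507 (epfl4 epfl6; SD, n = 3). The 25S ribosomal RNA control gave 11.84 ± 0.0272, 11.84 ± 0.105 and 11.30 ± 0.149 in the same order. The 3′ minus 5′ difference moves with every genotype comparison below, and the ribosomal RNA value with those of epfl4 epfl6. Their part in the results was not tested beyond the covariate fit given below, which cannot tell the 3′ minus 5′ difference apart from genotype.

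The criteria were met by 0.374% of all probe sets, while a rise of at least the same size in epfl4 epfl6 was found for 0.022%. The log2 change in epfl4 epfl6 ran from −6.46 to −2.01 over the 80 members, with a median of −2.71 beside −0.00 over all probe sets. It was at or below −3 for 32 members, at or below −4 for 14 and at or below −5 for 5. By the fit described below, 79 of the 80 were called lower in epfl4 epfl6 (background 16% of all probe sets called lower, 33.9% called in either direction), a count that the choice itself fixes. The exception was AT3G23770 (limma adjusted p = 0.0805). In WT 62 of the 80 had a mean above the highest array median of 5.91, whereas in epfl4 epfl6 10 did. The epfl4 epfl6 mean of 21 members lay below 3.22, the lowest lower quartile of the 9 arrays. Whether such low values stand above background was not tested, and the changes of these members are therefore fitted sizes only. In a whole-tissue sample, fewer cells of a type and less RNA per cell cannot be told apart.

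Just inside the threshold were AT2G24160 with a change of −2.01, the unlisted probe set 265127_at with −2.02 and AT3G58290 with −2.04. Just outside it were AT4G04760 with −1.95, AT3G50580 with −1.95 and AT2G41040 with −1.92. No probe set had a change at or below −2 with overlapping arrays.

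**Figure D1:**
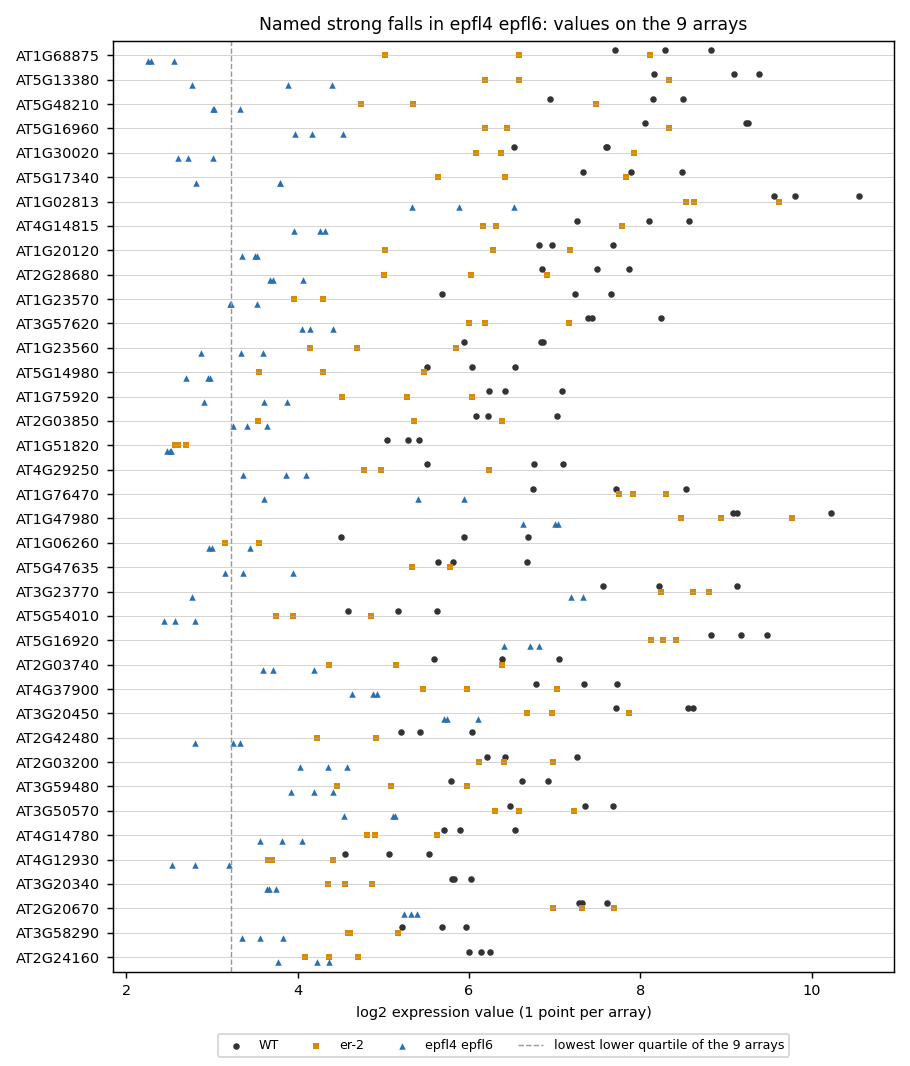
Log2 expression values of the 38 named members (x axis), 1 point per array, for WT (circles), er-2 (squares) and epfl4 epfl6 (triangles), ordered by the change in epfl4 epfl6. The epfl4 epfl6 points lie left of all WT points by the choice of members. All 3 er-2 points lie left of all WT points for 14 of these 38 members, beside 15.9% of all probe sets. The dashed line marks 3.22, the lowest lower quartile of the 9 arrays.

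The largest fall among named members was that of AT1G68875, a gene with no known role given here. It read 8.29, 8.83 and 7.70 on WT replicates 1 to 3, 6.58, 8.11 and 5.02 on those of er-2, and 2.29, 2.56 and 2.25 on those of epfl4 epfl6, a change of −5.91 ± 0.612 in the last (SE of the limma fit). The WT and er-2 ranges overlapped, and the er-2 arrays spread over more than 3 log2 units. Over the 9 arrays the non-member probe sets most like it were ATA27 (Pearson r = 0.998), AT1G59740 (0.987) and AT5G40040 (0.981), where all 9 arrays enter and the genotype steps are part of the likeness.

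AT5G48210 followed a similar course. Its values were 8.15, 8.50 and 6.95 in WT, 5.35, 7.48 and 4.74 in er-2, and 3.33, 3.01 and 3.02 in epfl4 epfl6. In er-2, replicate 2 reached the WT range and the other two arrays stayed below it. The probe sets most like AT5G48210 were AT5G40040 (r = 0.994), AT4G04460 (0.992) and SHT (0.992).

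Among members for metabolic enzymes, AT5G13380, of the GH3 family of acyl-amide synthetases to which auxin-conjugating enzymes belong, fell furthest. It read 9.09, 9.38 and 8.16 in WT, 6.19, 8.34 and 6.58 in er-2, and 2.77, 4.40 and 3.88 in epfl4 epfl6. Its likest non-members were SHT (r = 0.987), AT4G15460 (0.986) and AT1G65990 (0.981). AT5G16960, of a zinc-binding dehydrogenase family, read 9.26, 9.23 and 8.05 in WT, 6.18, 8.33 and 6.44 in er-2, and 3.96, 4.53 and 4.17 in epfl4 epfl6. In both genes er-2 replicate 2 lay within the WT range and the other er-2 arrays below it.

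The other 4 enzyme genes changed less in epfl4 epfl6. AT5G54010 (UGT79B6), a glycosyltransferase of flavonols in anthers, had means of 5.13 ± 0.52 (WT), 4.18 ± 0.588 (er-2) and 2.60 ± 0.185 (epfl4 epfl6; SD, n = 3). AT4G29250, of the acyltransferase family that includes SHT, had means of 6.46 ± 0.836, 5.33 ± 0.79 and 3.78 ± 0.372 in the same order. AT3G59480, of a family of sugar kinases, had means of 6.44 ± 0.585, 5.17 ± 0.764 and 4.18 ± 0.249. AT1G76470, of a reductase family related to cinnamoyl-CoA reductases, differed from these in that er-2 was not lower than WT: it read 6.74, 8.53 and 7.71 in WT, 7.91, 8.30 and 7.75 in er-2, and 5.94, 3.61 and 5.4 in epfl4 epfl6.

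Of the named members, 11 encode proteins of families that are secreted or act at the cell wall or on lipids, with epfl4 epfl6 changes from −3.80 to −2.24. AT4G14815, of the lipid transfer protein family, read 8.10, 8.56 and 7.26 in WT, 6.32, 7.78 and 6.16 in er-2, and 4.26, 4.32 and 3.95 in epfl4 epfl6. AT1G20120, a GDSL-type lipase gene, read 6.97, 7.68 and 6.82 in WT, 6.28, 7.17 and 5.02 in er-2, and 3.35, 3.5 and 3.52 in epfl4 epfl6. In both genes, at least 1 er-2 array reached into the WT range. AT1G75920, a lipase gene of the same type from the EXL cluster known from pollen coats, had means of 6.58 ± 0.452 in WT, 5.28 ± 0.762 in er-2 and 3.46 ± 0.499 in epfl4 epfl6.

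AT3G57620, related to glyoxal oxidases, averaged 7.69 ± 0.479 (WT), 6.45 ± 0.627 (er-2) and 4.21 ± 0.187 (epfl4 epfl6). AT5G14980, an α/β-hydrolase gene, averaged 6.03 ± 0.516, 4.44 ± 0.971 and 2.87 ± 0.152, and AT2G28680, of the cupin family, 7.40 ± 0.515, 5.98 ± 0.955 and 3.81 ± 0.214. In the order named, the er-2 change of these 3 was 35.6%, 50.3% and 39.7% of the epfl4 epfl6 change. The er-2 mean lay close to that of WT for 3 others, namely the aspartyl protease gene AT2G03200 (6.63, 6.5 and 4.32 in WT, er-2 and epfl4 epfl6), the hydroxyproline-rich glycoprotein gene AT3G50570 (7.17, 6.71 and 4.93) and AT5G47635 of the Ole e 1 and extensin family (6.04, 5.48 and 3.49).

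AT1G06260, a papain-type cysteine protease gene, was low in both mutants. It read 4.50, 6.68 and 5.94 in WT, 3.55, 3.55 and 3.15 in er-2, and 3.00, 3.44 and 2.96 in epfl4 epfl6, so both mutants lay below WT and overlapped each other. AT3G23770, of a β-glucanase family that includes callose-degrading enzymes, owed its place to a single array. It read 7.57, 9.13 and 8.22 in WT, 8.79, 8.61 and 8.24 in er-2, and 7.33, 7.19 and 2.76 in epfl4 epfl6, where replicates 1 and 2 lay just under the lowest WT value.

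Among the 2 kinase genes, AT1G51820, which encodes a leucine-rich repeat receptor-like kinase, was low in both mutants. It read 5.04, 5.28 and 5.41 in WT, 2.57, 2.60 and 2.70 in er-2, and 2.52, 2.51 and 2.47 in epfl4 epfl6, with both mutants below the lower quartile of every array. AT4G14780, another protein kinase gene, averaged 6.05 ± 0.433 (WT), 5.11 ± 0.448 (er-2) and 3.81 ± 0.251 (epfl4 epfl6).

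The 3 members of late embryogenesis abundant and desiccation-related families, whose best known relatives protect cells during drying, spread widely. AT2G03850 read 6.22, 7.02 and 6.08 in WT, 5.35, 6.38 and 3.54 in er-2, and 3.24, 3.64 and 3.41 in epfl4 epfl6, so that its er-2 arrays ran from the WT range into the epfl4 epfl6 range. AT2G03740 averaged 6.34 ± 0.733 (WT), 5.30 ± 1.02 (er-2) and 3.83 ± 0.316 (epfl4 epfl6), and AT1G47980 9.48 ± 0.651, 9.06 ± 0.653 and 6.89 ± 0.224.

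Another 7 named members belong to families whose biochemical role is not settled or is broad. Of the DUF538 family, AT1G30020 read 7.6, 7.61 and 6.52 in WT, 6.08, 7.93 and 6.38 in er-2, and 2.72, 3.02 and 2.60 in epfl4 epfl6. AT1G02813, of the same family, read 9.80, 10.55 and 9.56, then 8.53, 9.62 and 8.63, then 5.33, 5.89 and 6.52. The er-2 arrays of both overlapped WT and stood well above epfl4 epfl6. The TRAF-like genes AT2G42480 and AT3G58290 had means of 5.56 and 5.62 in WT, 4.46 and 4.79 in er-2, and 3.12 and 3.58 in epfl4 epfl6. AT2G20670, of the DUF506 family, read 7.32, 7.29 and 7.61 in WT, 6.98, 7.69 and 7.32 in er-2, and 5.39, 5.24 and 5.33 in epfl4 epfl6, where WT and er-2 overlapped fully.

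Of the remaining 7 genes without a role given here, 6 had epfl4 epfl6 changes of −4.43 (AT5G17340), −2.51 (AT5G16920), −2.47 (AT4G37900), −2.45 (AT3G20450), −2.21 (AT4G12930) and −2.20 (AT3G20340). The other, the transcribed pseudogene AT2G24160, read 6.14, 6.0 and 6.24 in WT, 4.08, 4.36 and 4.70 in er-2, and 4.37, 4.23 and 3.77 in epfl4 epfl6, with both mutants below WT and overlapping each other. The 42 members without a name of their own spanned the same sizes, from −6.46 to −2.02 with a median of −2.75. The largest change of all was that of 250610_at, which read 8.93, 9.76 and 8.92 in WT, 8.06, 8.71 and 4.73 in er-2, and 2.73, 2.67 and 2.82 in epfl4 epfl6.

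The er-2 arrays had no part in the choice of members, but er-2 minus WT shares its WT arrays with the choice, and epfl4 epfl6 minus er-2 its epfl4 epfl6 arrays, so neither is independent of it. The er-2 mean lay between the other two means for 78 of the 80 members and above WT for 2, AT1G76470 and AT3G23770. The choice sets those other means at least 2 log2 units apart, which itself favours an er-2 mean between them. The share over all probe sets was not computed, so the count describes the members only. The median log2 change in er-2 was −1.18 over the members and 0.01 over all probe sets. As a share of the epfl4 epfl6 change, the er-2 change ran from −12.0% to 95.6% with a median of 39.8%.

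By limma, 43 of the 80 members were called lower in er-2 than in WT at an adjusted p under 0.05 (background 9.01% of all probe sets, with 20.8% called in either direction). The 3 er-2 arrays lay below the 3 WT arrays for 29 of the 80, called or not (background 15.9%). In the direct comparison of the mutants, 67 were called lower in epfl4 epfl6 than in er-2 (background 10.2%, with 20.2% called in either direction), and the arrays did not overlap for 76 (background 19.2%). The first count depended on single arrays: it was 16 without WT replicate 2 or er-2 replicate 1, 18 without er-2 replicate 3, 24 without WT replicate 1 and 63 without er-2 replicate 2. It was 20 when the variance was given a trend with robust estimation, and 21 when the fit held only the 6 arrays of these genotypes. With the 3′ minus 5′ difference as a covariate, an alternative added after seeing the data, it was 28 and the count between the mutants was 13.

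Both tests divide the members into 4 kinds. For 36 (16 named), er-2 was called lower than WT and epfl4 epfl6 called lower still. For 31 (14 named), er-2 was not called against WT while epfl4 epfl6 was called lower than er-2. For 7 (5 named), er-2 was called lower than WT and the mutants were not called apart, and for 6 (3 named) neither comparison was called. The share of all probe sets in each kind is not given here, so these counts describe the members only. A p above the threshold does not show that the genotypes were alike.

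By role, 5 of the 11 genes of secreted, wall or lipid-related families were called lower in er-2 (background 9.01%), and 9 were called lower in epfl4 epfl6 than in er-2 (background 10.2%). The same counts were 3 and 5 of 6 for the metabolic enzymes, 4 and 6 of 7 for the DUF and TRAF-like families, and 7 and 8 of 9 for the genes without a role given here. Both kinase genes were called lower in er-2, and 1 of them, AT4G14780, lower still in epfl4 epfl6. For the late embryogenesis and desiccation genes, limma gave adjusted p = 0.132 (AT2G03850), 0.165 (AT2G03740) and 0.469 (AT1G47980) in er-2, and AT1G47980 was called lower in epfl4 epfl6 than in er-2 (adjusted p = 0.00279).

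**Figure D2:**
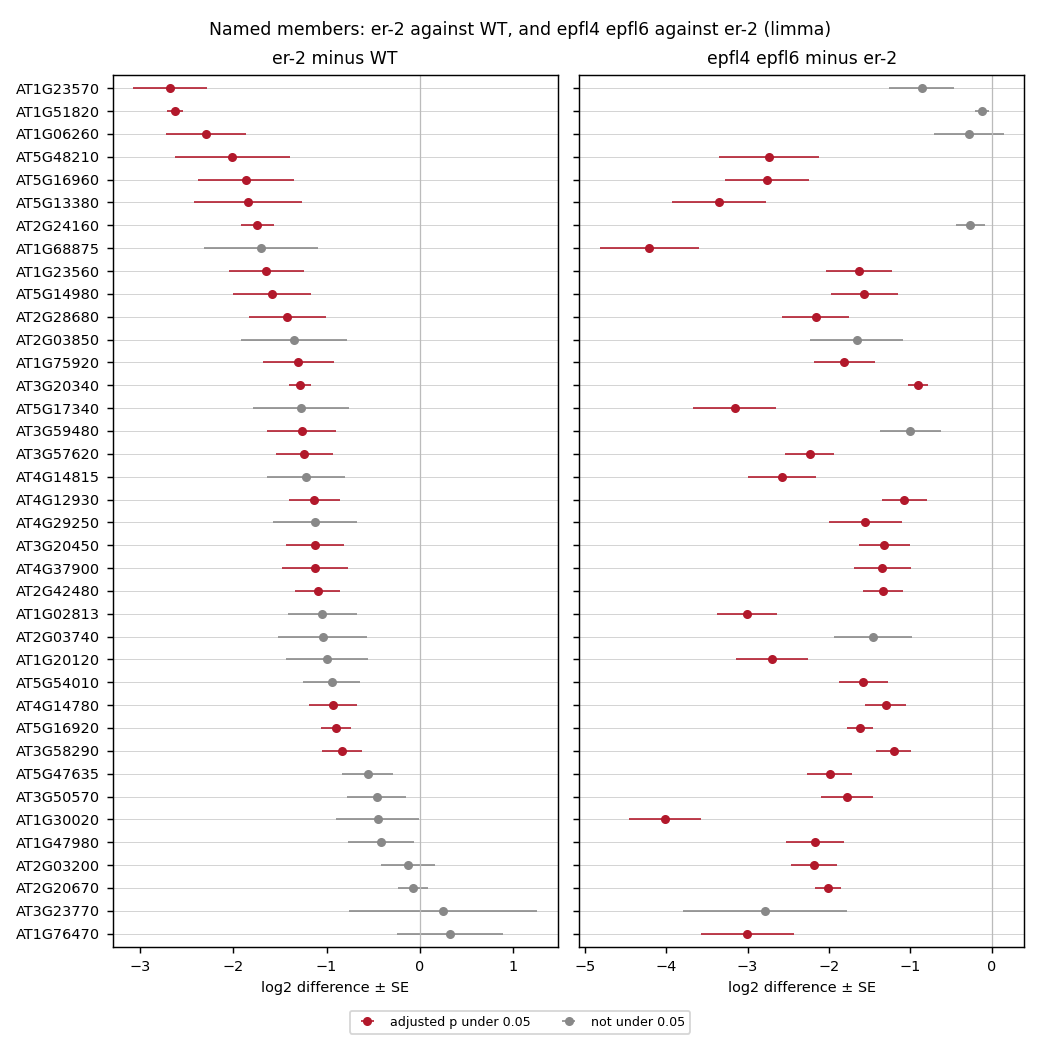
Log2 difference ± SE (limma, 3 arrays per genotype) of the 38 named members for er-2 minus WT (left) and epfl4 epfl6 minus er-2 (right), with differences at an adjusted p under 0.05 in red. AT1G23570, AT1G51820, AT1G06260 and AT2G24160 lie at −2.68 to −1.74 in the first panel and at −0.86 to −0.12 in the second, and AT1G30020, AT2G20670, AT2G03200 and AT1G76470 show the reverse.

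The members that changed about as much in er-2 as in epfl4 epfl6 were few. In er-2, AT1G51820 fell by 2.62 ± 0.0889 (SE; limma adjusted p = 1.35e-07), which was 95.6% of its epfl4 epfl6 change, and the mutants differed by −0.12 (adjusted p = 0.386). AT1G06260 fell by 2.29 ± 0.432 (adjusted p = 0.00477) and AT2G24160 by 1.74 ± 0.176 (adjusted p = 0.000164), with mutant differences of −0.28 and −0.26. The mutant means of AT1G51820, 2.62 (er-2) and 2.50 (epfl4 epfl6), lay under 3.22, the lowest lower quartile of the arrays. Those of AT1G06260, 3.42 and 3.14, lay near it. Values that low may hide a further difference between the mutants, which was not tested. AT1G23570, of the DUF220 family, fell by 2.68 ± 0.399 against WT in er-2 (adjusted p = 0.00136). Its mutant difference of −0.86 was not called (adjusted p = 0.166), although the arrays did not overlap. These 4 were the members with an er-2 share over 75%, and their er-2 calls held in all 14 alternatives run for single genes. The fifth named gene of this kind, AT3G59480, was at −1.27 there (adjusted p = 0.0372), a call lost in 8 of the alternatives.

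At the other end, 8 members had an er-2 share under 15%. AT2G20670 changed by −0.07 ± 0.157 in er-2 (SE; limma adjusted p = 0.797), and epfl4 epfl6 was lower than er-2 by a log2 difference of −2.01 ± 0.157 (adjusted p = 5.69e-05). AT2G03200 changed by −0.13 in er-2 and differed by −2.18 between the mutants (adjusted p = 0.000976), and AT1G30020 changed by −0.45 and differed by −4.01 (adjusted p = 0.000406). AT1G76470 was at 0.32 ± 0.57 in er-2 (adjusted p = 0.754) and differed by −3.0 between the mutants (adjusted p = 0.00567). AT3G23770, at 0.25 in er-2, was not called between the mutants (−2.79 ± 1.01, adjusted p = 0.0813). The calls between the mutants held in all 14 alternatives for the first 4 of these genes.

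The named genes AT3G20340 and AT5G16920 showed both steps with little spread. AT3G20340 read 5.8, 5.83 and 6.02 in WT, 4.35, 4.56 and 4.87 in er-2, and 3.66, 3.75 and 3.64 in epfl4 epfl6. In er-2 it fell by 1.29 ± 0.119 (SE; limma adjusted p = 9.55e-05), and the mutants differed by −0.91 (adjusted p = 0.00098). AT5G16920 read 9.18, 9.48 and 8.83, then 8.26, 8.41 and 8.12, then 6.82, 6.41 and 6.71, where the er-2 change was −0.90 ± 0.161 (adjusted p = 0.00374) and the mutant difference −1.62 (adjusted p = 0.000244). In both the 3 genotypes did not overlap. With AT2G42480, whose er-2 change was −1.10 (adjusted p = 0.0109), they were the 3 named genes of this kind whose er-2 calls held in all 14 alternatives.

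For the other 14 of the 21 named er-2 calls, at least 1 alternative ended the call. Leaving out WT replicate 2 ended all 14, and so did leaving out replicate 1 or replicate 3 of er-2. Without WT replicate 1 the loss was 10, and with the variance trend 11. The highest adjusted p over the alternatives ranged from 0.061 to 0.161 for these genes, AT5G13380, AT5G48210 and AT5G16960 among them. Of the 30 named calls between the mutants, 23 held in all 14 alternatives.

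Within WT and within er-2, most members shared an order of the arrays. WT replicate 2 was the highest WT array for 68 of the 80 members (31.0% of all probe sets) and WT replicate 3 the lowest for 52 (33.7%). In er-2, replicate 2 was the highest for 68 (30.2%) and replicate 3 the lowest for 53 (32.2%). In epfl4 epfl6, replicate 2 was the highest for 34 members (37.3% of all probe sets) and replicate 1 the lowest for 36 (32.6%), which is 42.5% and 45% of the members. The choice of members used genotype means and the gap between groups, not the order of arrays within a genotype.

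**Figure D3:**
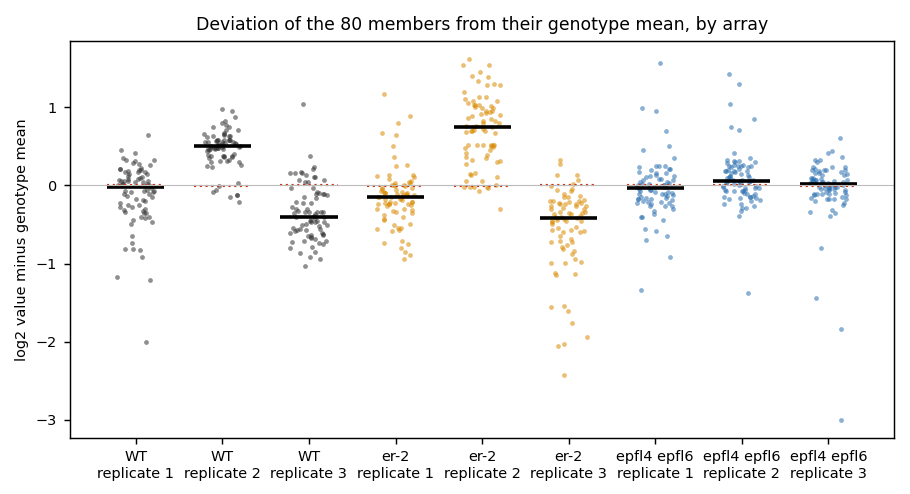
Deviation of each of the 80 members from its genotype mean (y axis, log2) on each of the 9 arrays, 1 point per member, with the members' median as a black bar and the median of all probe sets as a dotted red line near 0. The members' medians are 0.50 on WT replicate 2, 0.75 on er-2 replicate 2, −0.40 on WT replicate 3 and −0.41 on er-2 replicate 3.

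Beside all probe sets these deviations were large, though no probe sets matched to the members by level were compared. The median SD over 3 arrays was 0.519 for members in WT, 0.699 in er-2 and 0.212 in epfl4 epfl6, beside 0.0894, 0.0818 and 0.0907 over all probe sets. On er-2 replicate 2, 35 probe sets of all 22746 exceeded both other er-2 arrays by over 1 log2 unit, and 26 of these were members. On er-2 replicate 3, 26 probe sets lay below both others by over 1 unit, of which 11 were members, AT1G68875, AT1G20120, AT2G28680 and AT2G03850 among them. WT replicate 3 was lower in the same way for 16 probe sets, of which 8 were members.

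As a description, the deviations from the genotype means correlated with a median r of 0.61 over the 3160 pairs of members, and with a median of −0.03 between members and other probe sets. All these correlations rest on the same 9 arrays. Against the median deviation of the other members, 47 of the 80 had r over 0.8, with AT4G37900, AT5G54010, AT4G14815 and AT5G48210 at 0.95 or above. For 6 members r was under 0, and 3 of these are named, AT3G20340 (−0.41), AT2G24160 (−0.32) and AT1G51820 (−0.28). Those 3 were even over the WT arrays, with SDs of 0.119, 0.12 and 0.188.

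A few members departed from the common order in other ways. On WT replicate 1, AT1G23570, AT1G06260 and 257102_at lay over 1 unit below the other WT arrays, and AT1G23570 read 5.68 there beside 7.65 and 7.24. On epfl4 epfl6 replicate 3, 4 members, AT3G23770, 254494_at, 258392_at and 261051_at, were over 1 unit below the other epfl4 epfl6 arrays. The probe set 258392_at, assigned to AT3G15395 and ATA20, read 8.50, 8.54 and 6.35 on the epfl4 epfl6 arrays. Without that array the criteria gave 78 probe sets, 77 of them among the 80.

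The named members were spread over the 5 nuclear chromosomes, with 11, 7, 7, 5 and 8 on chromosomes 1 to 5, or 0.322%, 0.323%, 0.257%, 0.258% and 0.268% of the measured named genes there. Gene order was taken from the RefSeq annotation of TAIR10.1, used for names and order only. In 5 cases, a pair of members lay within 10 measured named genes of each other. AT1G23560 and AT1G23570, both of the DUF220 family, were direct neighbours among measured named genes. Their er-2 changes were −1.65 and −2.68 and their epfl4 epfl6 changes −3.28 and −3.54. Whether their probe sets also detect each other's transcripts was not tested. AT1G23580, next to them, was at −0.90 in epfl4 epfl6, and AT1G23530 on the other side at 0.26.

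AT2G03740 and AT2G03850, both of the late embryogenesis abundant family, lay 7 steps apart. The 6 measured named genes between them had epfl4 epfl6 changes from −0.55 (AT2G03810) to 0.48 (AT2G03780). AT5G16960 lay beside AER, a reductase gene of its own family, which was 0.45 higher in epfl4 epfl6. The 42 non-member genes measured in and around the 5 pairs had changes from −0.90 to 0.72. Among measured named genes, AT1G75920 stood between AT1G75900, a lipase gene of the same cluster with a change of 1.01, and ATA27 with −6.34. Genes without a named probe set may lie between those named here. AT3G50570 stood beside AT3G50580, which missed the threshold at −1.95.

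**Figure D4:**
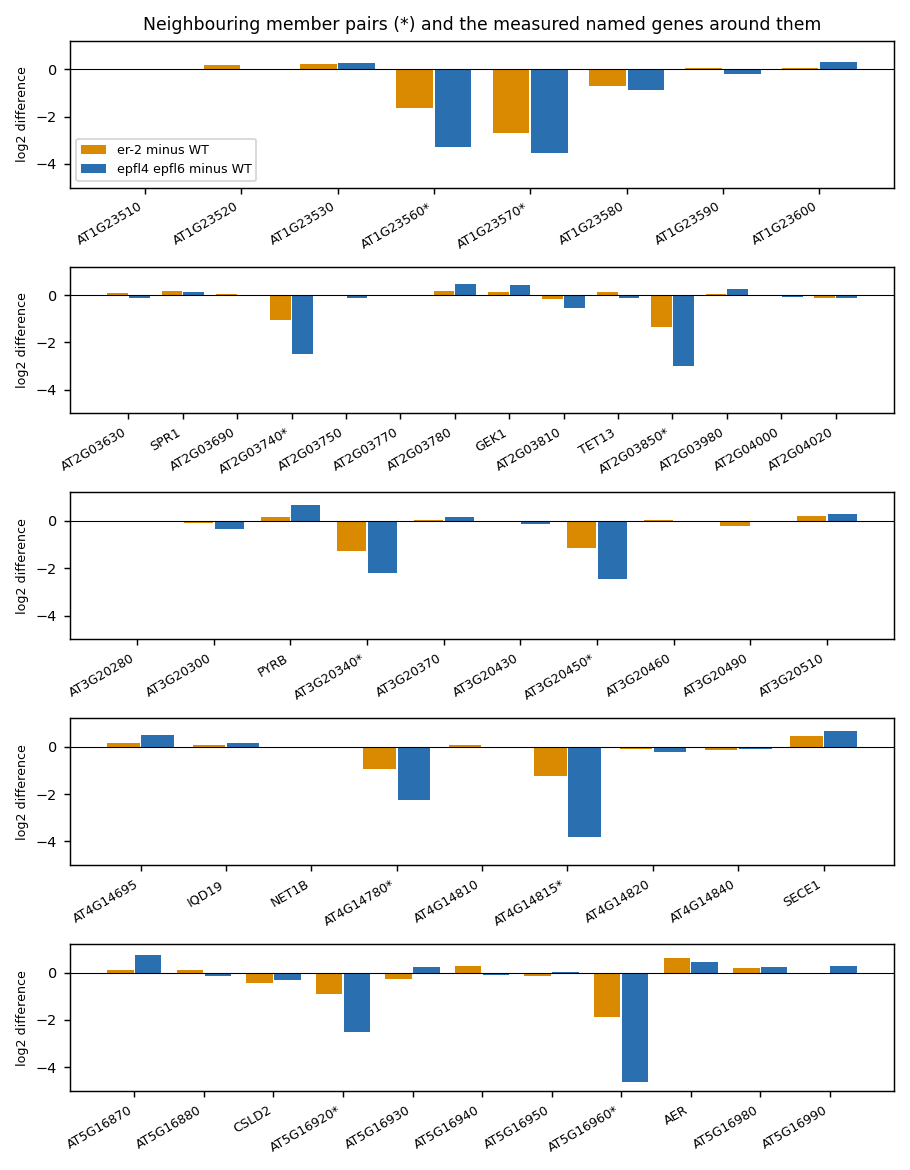
Log2 difference from WT (y axis) in er-2 and in epfl4 epfl6 for 5 pairs of neighbouring named members, marked with an asterisk, and for the measured named genes between and around them in chromosome order (x axis, not to distance). The members have epfl4 epfl6 changes from −4.63 to −2.20, and the genes around them lie between −0.90 and 0.72.

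Genes known from the tapetum and from pollen walls, with some of related pathways, were set beside the members as lists written from textbook knowledge. A listed gene counted as measured only if a probe set was assigned to it alone. The others may be among the unlisted probe sets or those assigned to several genes. Of 13 listed tapetum regulators, 5 were measured and none was a member. In epfl4 epfl6, 3 were called lower (background 16% of all probe sets) with a list median of −0.32, and in er-2 4 were called lower (background 9.01%) with a median of −0.37. AMS, a basic helix-loop-helix (bHLH) factor needed for tapetum development, was at −0.36 in er-2 and −0.40 in epfl4 epfl6 (limma adjusted p = 0.00928 and 0.0028). AT2G31210, of the bHLH factors that act with the tapetum regulator DYT1, changed by −0.52 and −0.47 (adjusted p = 0.00729 and 0.00741), and its relative AT1G06170 by −0.38 (adjusted p = 0.00377) and −0.05. EMS1, the receptor kinase gene that specifies the tapetum, was at −0.37 and −0.32. Neither call held when WT replicate 2 or 3 was left out. The er-2 call also needed er-2 replicate 2, and the other needed replicates 1 and 3 of epfl4 epfl6 (adjusted p up to 0.0563 and 0.0683).

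Of 9 listed genes for callose, exine patterning and microspore release, 2 were measured. SWEET8 (AT5G40260), a sugar transporter needed for exine pattern, was lower in epfl4 epfl6 by a log2 difference of −1.10 ± 0.248 (SE; limma adjusted p = 0.00672), while its er-2 difference of −0.68 was not called (adjusted p = 0.0844). AT1G33430, a galactosyltransferase of pollen wall formation, was at −0.53 and −0.56 in the mutants (er-2 first, adjusted p = 0.00121 and 0.00044). Of 6 listed phenolamide genes, not all of them known from the pollen coat, 3 were measured and 2 called lower in each mutant (background 9.01% in er-2 and 16% in epfl4 epfl6). SHT met the criteria for members before it was left out by name, so the choice fixed its epfl4 epfl6 call. The called genes were SHT, with −1.90 (er-2) and −4.66 (epfl4 epfl6), and SDT (AT2G23510), a spermidine acyltransferase, with −0.65 and −1.07. SDT is not read here as a pollen coat gene. For SHT the er-2 call ended with the variance trend and with the loss of WT replicate 1 or 2, replicate 1 or 3 of er-2, or replicate 3 of epfl4 epfl6 (adjusted p up to 0.115). None of the 9 listed genes of sporopollenin synthesis and export had a named probe set.

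Of 21 genes for pollen coat proteins and anther lipid transfer, ATA20 shares its probe set, the member 258392_at, with another gene and was not counted. By the definition above, 9 of the 21 were measured. In epfl4 epfl6, 4 were called lower and 1 higher (background 16% and 17.9%), with a list median of 0.02. Of these 4, AT1G75920 is a member and ATA27 met the same criteria before it was left out by name, so the choice fixed both calls and the count is not read against the background. In er-2, 2 were called lower and 1 higher (background 9.01% and 11.8%), with a median of −0.18. The anther lipid transfer genes AT1G66850 and AT5G07230 (A9) changed by −1.28 and −0.83 in epfl4 epfl6 (limma adjusted p = 0.000656 and 0.00107), while AT5G52160 and AT5G62080 of the same kind were at 0.16 and 0.11 and were not called. In epfl4 epfl6, AT1G75900 rose by 1.01 (adjusted p = 0.00018). Its er-2 call, at 0.40, ended when any 1 WT array, replicate 1 or 2 of er-2, or replicate 3 of epfl4 epfl6 was left out (adjusted p up to 0.122). The er-2 call of AT1G75920 likewise ended with the variance trend and when WT replicate 2 or 3, replicate 1 or 3 of er-2, or replicate 3 of epfl4 epfl6 was left out.

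Markers of other cell types were measured on the same arrays. Of 11 genes of mature pollen, 3 were measured, and their mean level on an array was 2.93 to 3.10 in WT, 2.98 to 3.11 in er-2 and 2.78 to 3.01 in epfl4 epfl6, under the lower quartile of every array. ANX1 and ANX2 each read under that quartile on all 9 arrays. AT4G39110 lay above it, at 3.78 to 4.18 in WT and 3.32 to 3.73 in epfl4 epfl6, and was called lower in epfl4 epfl6 (−0.48, limma adjusted p = 0.0145), a call lost without WT replicate 2 or epfl4 epfl6 replicate 1 or 3 (adjusted p up to 0.0577). Of 5 ovule and carpel genes only INO was measured, at 3.16 to 3.65 in WT and not called. Of 5 genes of green tissue, 3 were measured and called higher in both mutants (background 11.8% in er-2 and 17.9% in epfl4 epfl6). Their mean levels on an array were 11.43 to 11.55 in WT, 11.83 to 11.92 in er-2 and 11.76 to 11.88 in epfl4 epfl6. RCA changed by 0.49 and 0.48 (er-2 first), PSAN by 0.40 and 0.40, and LHCB4.1 by 0.30 and 0.18. The epfl4 epfl6 call of LHCB4.1 was lost in 9 of 14 alternatives, among them the loss of any 1 WT or epfl4 epfl6 array (adjusted p up to 0.22). Their part in the lower values of the members was not tested.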

How the data were processed

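Per the labels' protocols, total RNA of inflorescence tips was turned into biotin-labelled cRNA by a kit that primes at poly(A), and hybridised to 1-colour Affymetrix arrays. The deposited table holds log2 expression values made by the authors with RMA, per the submitters' processing notes, which also name limma. Versions and design are not given in the sources used here. Values between 1.74 and 13.47, with array medians of 5.82 to 5.91, entered as deposited, without the Affymetrix control probe sets. Precision is limited by the number of arrays.

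Symbols came from the platform annotation, with current names looked up in RefSeq by Entrez identifier (13513 probe sets with 1 gene, 503 with several, 8730 not listed). Groups came from the sample titles, 3 arrays each. Where nothing says that replicates came from separate cultures or plants, p-values measure the spread between these samples. limma 3.58.1 in R 4.3.3 was fitted to all 9 arrays, with 1 mean for each genotype. Tests were two-sided, with Benjamini-Hochberg adjustment over 22746 probe sets and calls at an adjusted p under 0.05. The fit was tested on simulated data with independent noise for each probe set, which does not cover deviations that probe sets share. Members, gene lists and family roles were chosen with earlier results of these data known. Every member assigned to 1 gene was named, with the list genes called in either mutant and the 3 non-members most correlated with each of the 3 largest falls. Alternatives were median centring, a repeat of quantile normalization, array weights, a robust fit with a variance trend, fits on 6 arrays, other thresholds, a replicate block, no probe sets of the dimmest 30%, and each array left out. For single genes 14 of these were run, without the 6-array fits, the fit without the dimmest 30%, the other thresholds and the covariate fit. Sequences were not analysed here.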

Additional observations from a re-analysis of the deposited data

How the results depend on the processing

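The criteria gave 77 probe sets after quantile normalization again or median centring, 79 without the dimmest 30%, and 69 to 88 with an array left out. They gave 146 at a threshold of −1.5 and 53 at −2.5. The count of members called lower in er-2 was 42 after quantile normalization again, 37 after median centring, 45 without the dimmest 30% and 47 with array weights. It was 20 with a variance trend and robust estimation, 21 in the 6-array fit, and 16 to 63 with an array left out. The count called lower in epfl4 epfl6 than in er-2 was 48 to 72 with an array left out and 49 to 73 under the other alternatives named here. Over all probe sets, counts stayed within 1.5 times of 4722, 7707 and 4587 under these alternatives. With the 3′ minus 5′ difference as a covariate, added after seeing the data, the counts were 28 and 13 for the members, and 648 (er-2 from WT), 1 (epfl4 epfl6 from WT) and 66 (between mutants) for all probe sets. The 3′ minus 5′ difference did not overlap between genotypes, at 2.30 to 2.58 in WT, 2.08 to 2.22 in er-2 and 1.61 to 1.72 in epfl4 epfl6. It and genotype therefore cannot be told apart by this fit, and the cause of the lower counts was not tested.

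The labels give no shared origin for same-numbered arrays, and over all probe sets their deviations correlated at −0.19 to 0.29, so the numbers were not taken as pairs. Between WT and er-2 the values were −0.01, 0.29 and 0.19 for numbers 1 to 3, and the members ran together there on replicates 2 and 3. In the fit with a replicate block, 54 members were called lower in er-2, including the 43, and 69 lower in epfl4 epfl6 than in er-2.

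Small er-2 changes turned sign when 1 array was left out. AT1G76470 ranged from −0.14 (without WT replicate 1) to 0.76, and AT3G23770 from −0.12 (without WT replicate 1) to 0.66. AT2G03200 ranged from −0.37 to 0.19 (without WT replicate 2), with 0.07 without er-2 replicate 3. AT2G20670 ranged from −0.25 to 0.10 (without er-2 replicate 1), with 0.03 without WT replicate 3. Whether values below the lower quartile of the arrays stand above background was not tested.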
